A study of Mus musculus with 8 samples.

Results

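The genes described here are 10 core genes of the Notch pathway, chosen by name: the receptors Notch1, Notch2, Notch3 and Notch4, the ligands Jag1, Jag2 and Dll4, the DNA-binding factor Rbpj, and the target genes Hes1 and Heyl. All 10 had a row among the 27110 listed genes, and all 10 were among the 16420 genes with enough reads to test. Bulk RNA of 8 mouse livers at week 7 was compared. The LKO group holds 4 livers with a liver-restricted deletion of Pkd1l1, a polycystin-family gene linked to biliary atresia (replicates 3, 4, 12 and 13, all labelled female). The Fl/Fl group holds 4 livers of mice with the floxed allele as controls (replicates 5, 7 and 9 labelled female, replicate 10 labelled male). All 8 carry the treatment label NT. The sources used here do not name the Cre driver, and the labels give hepatocytes and cholangiocytes as the cell type.

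Notch signalling passes between touching cells. A ligand of the Jagged or Delta-like family on 1 cell pulls on a Notch receptor on its neighbour, the receptor is cleaved, and its inner part enters the nucleus. There it binds RBPJ and switches on genes such as those of the HES and HEY families of transcriptional repressors. In the developing liver, JAG1 on mesenchymal cells around the portal vein and NOTCH2 on liver progenitors drive the formation of bile ducts. Human loss of JAG1 or NOTCH2 causes Alagille syndrome, in which bile ducts are few.

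In these livers Jag1 RNA was lower in LKO, at 0.455 of its female Fl/Fl level, and it was the 1 gene of the 10 to pass the test. That call held in 11 of 20 alternative fits, and in 3 of the 8 among them that left out a library. Rbpj stood lower in each LKO library than in each female Fl/Fl library but missed the threshold. The receptors, the other ligands and the target genes Hes1 and Heyl did not pass. Across all tested genes, 0.396% were called lower in LKO and 1.02% higher (edgeR's quasi-likelihood test with terms for genotype and sex, Benjamini-Hochberg adjusted p under 0.05), so 1 called gene of 10 is read against a background of 1.41% called in either direction. The median log2 fold change of the 10 genes was -0.24, and 8 of the 10 fold changes were negative. Over all tested genes the median was -0.0032, with 50.5% negative. The median of the 10 was -0.085 without Fl/Fl 9 and -0.049 with no sex term.

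Each library held 71491723 to 76622375 counted reads. Values in CPM are reads divided by library sizes scaled by the TMM method. In these units 3 reads are worth 0.0385 to 0.0428 CPM per library, a floor for counting error only. Because the single male library has its own sex term, a fold change compares 4 LKO with 3 female Fl/Fl libraries. Reads of the deleted gene were too few to check the genotype labels, since Pkd1l1 had 2 reads over the LKO libraries and 2 over the Fl/Fl libraries. As to the labelled tissue, hepatocyte markers led by Alb summed to 121230 to 134270 CPM in LKO, 127240 to 137400 CPM in female Fl/Fl and 85843 CPM in male Fl/Fl. The cholangiocyte keratin Krt19 was at 1.499 to 2.49 CPM in LKO, 1.72 to 2.23 CPM in female Fl/Fl and 1.48 CPM in male Fl/Fl. In bulk tissue, fewer cells of a type and less RNA per cell cannot be told apart.

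Levels between genes were compared in the deposited FPKM, read fragments scaled by library and divided by gene length. For Rbpj and Hes1 the listed length, 12750 and 2037 bases, equals the joined exons of all their GENCODE M21 transcripts. The order of levels depends on these lengths, and other lengths were not tried. Notch2 was the most abundant of the 10 genes, at 4.84 to 5.68 FPKM in LKO, 4.90 to 5.64 FPKM in female Fl/Fl and 4.50 FPKM in male Fl/Fl. Hes1 followed with a mean over the 8 libraries of 3.91 ± 0.68 FPKM (SD), then Notch1 with 1.76 ± 0.47 FPKM and Rbpj with 1.46 ± 0.31 FPKM. Next came Dll4 (0.793 ± 0.202 FPKM), Notch4 (0.719 ± 0.160), Jag1 (0.630 ± 0.284), Heyl (0.485 ± 0.140) and Notch3 (0.397 ± 0.096), with Jag2 last at 0.0567 ± 0.0307 FPKM. The ranges over the 8 libraries of neighbours in this order overlapped, except between Hes1 and Notch1 and between Notch3 and Jag2. Within single libraries the order was firmer: Notch2 exceeded Hes1, and Rbpj exceeded Dll4, in 8 of 8 libraries, although their ranges over all libraries overlap. Dll4 exceeded Notch4 in 4 of 8 libraries, Notch4 exceeded Jag1 in 5, and Jag1 exceeded Heyl in 5, so the order of these 4 genes was not steady.

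**Figure D1:**
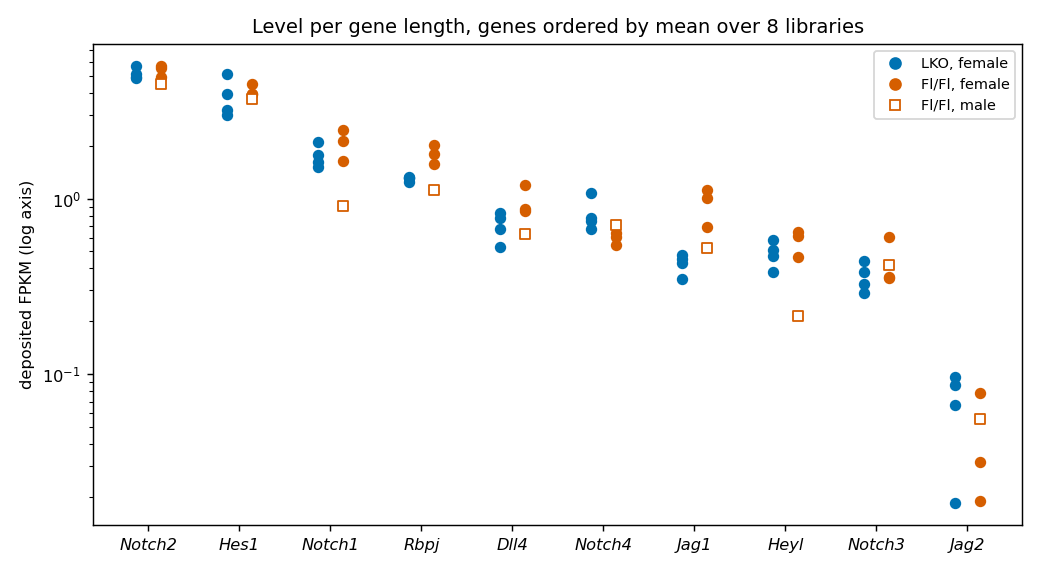
Deposited FPKM (log axis) of the 10 Notch genes in each library, ordered by the mean over 8 libraries. LKO libraries (blue) stand left of Fl/Fl libraries (orange, with the male library as an open square). The pooled ranges of neighbouring genes part below Hes1 and below Notch3.

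Within the summed receptor FPKM, Notch2 made up 63.7 ± 2.2% in LKO and 63.5 ± 2.8% in female Fl/Fl (SD, n = 4 and 3). Notch1 made up 21.6 ± 1.8% in LKO and 24.3 ± 2.1% in female Fl/Fl. The summed level of the 3 ligands was 1.07, 1.33, 1.21 and 1.17 FPKM in the LKO libraries, against 1.91, 2.33 and 1.62 FPKM in female Fl/Fl and 1.21 FPKM in male Fl/Fl. LKO lies below each female Fl/Fl sum, and the male value lies within the LKO range. Jag1 was 35.9 ± 5.6% of that pool in LKO, against 47.8 ± 5.0% in female Fl/Fl. Dll4 was 58.3 ± 6.3% of it in LKO, against 49.8 ± 3.7% in female Fl/Fl. These shares were not tested. The sum of Jag1, Jag2 and Dll4 leaves out the ligand gene Dll1, so it is not the whole ligand level. In CPM, which is not divided by length, Dll1 averaged 5.86 over the 8 libraries, against 3.54 for Jag1 and 2.94 for Dll4. Dll1 averaged 6.42 CPM in LKO and 6.04 CPM in female Fl/Fl.

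Jag1 (ENSMUSG00000027276, chromosome 2, 137081456 to 137116644, minus strand, mm10) encodes Jagged1, the ligand of the portal mesenchyme. It had 192, 194, 147 and 183 reads in LKO 3, 4, 12 and 13, against 424, 488 and 296 reads in Fl/Fl 5, 7 and 9 and 205 reads in the male Fl/Fl 10. Scaled, these were 2.53, 2.68, 1.96 and 2.41 CPM in LKO, 5.66, 6.26 and 3.86 CPM in female Fl/Fl and 2.92 CPM in male Fl/Fl. The LKO values lie close together and below each of the 4 Fl/Fl values, but the male library sits nearer to the LKO values than to the female Fl/Fl ones. Jag1 averaged 2.39 ± 0.31 CPM in LKO and 5.26 ± 1.25 CPM in female Fl/Fl (SD, n = 4 and 3). The log2 fold change was -1.13 ± 0.20 (SE, 95% interval -1.57 to -0.70, edgeR adjusted p = 0.0262). Jag1 was the 1 gene of the 10 with its 4 LKO values on one side of all 4 Fl/Fl values, a pattern held by 4.44% of tested genes, with LKO below in 2.11%. The authors' deposited values compare LKO with Fl/Fl over all 8 libraries, the male included, so they are not the contrast tested here. Their Jag1 log2 fold change was -0.97 with an adjusted p of 0.0261, and 0.409% of their 27110 genes were under 0.05. For the same 8 libraries with no sex term, edgeR gave -0.97 with an adjusted p of 0.401.

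The Jag1 call depended on which libraries were kept. It was lost when LKO 4, LKO 12, LKO 13, Fl/Fl 5 or Fl/Fl 7 was left out (adjusted p = 0.0687, 0.0570, 0.0756, 0.133 and 0.0982) and with no sex term (log2 -0.97, adjusted p = 0.401, where 0.00609% of tested genes were called), while the fold change stayed between -1.32 and -0.997 over the 8 fits that left out a library. Without both Fl/Fl 5 and Fl/Fl 7 it was -0.70 (adjusted p = 0.388).

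Upstream sequence is shown for Jag1, the gene that passed, and for Rbpj, the gene nearest to the threshold. Both are the 250 bases before the RefSeq start (build GRCm38.p6), written 5′ to 3′ on the gene's strand. Capitals mark TGGGAA, the core letters of the RBPJ motif, or its reverse complement. The Jag1 window is chr2:137116521-137116770 (minus strand), and the deposited gene end of Jag1, 137116644, lies inside it. The Rbpj window is chr5:53590096-53590345 (plus strand), within the deposited gene span.
Jag1: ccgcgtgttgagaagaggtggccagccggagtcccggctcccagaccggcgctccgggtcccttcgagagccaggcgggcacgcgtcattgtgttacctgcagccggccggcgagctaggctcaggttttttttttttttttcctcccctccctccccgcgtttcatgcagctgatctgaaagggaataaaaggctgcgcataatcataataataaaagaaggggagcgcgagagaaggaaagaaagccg
Rbpj: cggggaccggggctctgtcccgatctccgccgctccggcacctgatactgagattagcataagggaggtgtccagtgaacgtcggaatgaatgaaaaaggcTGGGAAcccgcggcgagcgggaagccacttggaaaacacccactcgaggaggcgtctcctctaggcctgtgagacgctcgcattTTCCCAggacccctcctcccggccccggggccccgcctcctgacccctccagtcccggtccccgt

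The Rbpj window holds the letters 2 times, on opposite strands, and the Jag1 window holds none. Of 32851 RefSeq windows of 250 bases, 21.6% hold TGGGAA on either strand. Entries were matched for 8 of the 10 genes (9 windows, 2 of them for Rbpj), and not for Hes1 and Heyl. Outside the Rbpj windows no match was found, and the AP-1 letters TGANTCA, which 6.75% of the windows hold, were in none of the 9. A match of letters is not a binding site.

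The other ligands did not pass. Dll4 (chromosome 2, 119325784 to 119335962), the endothelial ligand that restrains vessel sprouting, was at 1.96, 3.08, 2.87 and 2.50 CPM in LKO, against 3.23, 4.46 and 3.12 CPM in female Fl/Fl and 2.32 CPM in male Fl/Fl. Each LKO value lies below each female Fl/Fl value, by a small gap, and the male value lies inside the LKO range. The log2 fold change was -0.47 ± 0.21 (SE, 95% interval -0.93 to -0.0059, edgeR adjusted p = 0.304). Jag2 (chromosome 12, 112907819 to 112929776), the second Jagged ligand, had 44, 9, 49 and 34 reads in LKO, against 16, 10 and 40 reads in female Fl/Fl and 26 in male Fl/Fl. The groups overlap throughout, and the interval of the log2 fold change ran from -0.70 to 1.99 (adjusted p = 0.653).

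Among the receptors, Notch4 (chromosome 17, 34564268 to 34588503), a receptor known from endothelium, had the fold change with the smallest p. It was at 5.202, 8.31, 5.81 and 5.98 CPM in LKO, against 4.69, 4.24 and 4.94 CPM in female Fl/Fl and 5.46 CPM in male Fl/Fl. Each LKO value lies above each female Fl/Fl value, LKO 4 stands highest, and the male value lies inside the LKO range. The log2 fold change was 0.45 ± 0.18 (SE, edgeR adjusted p = 0.240). Notch2 (chromosome 3, 98013527 to 98150361), the main receptor of biliary development, was at 58.9, 50.3, 53.2 and 50.8 CPM in LKO, against 57.2, 51.1 and 58.2 CPM in female Fl/Fl and 46.5 CPM in male Fl/Fl. The 2 genotypes overlap. The 95% interval of its log2 fold change, -0.26 to 0.14, was the narrowest of the 10 and leaves out a fall of the size seen for Jag1 (adjusted p = 0.814).

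Notch1 (chromosome 2, 26457903 to 26516663), a receptor of endothelium and immune cells, was at 28.8, 24.1, 20.8 and 22.1 CPM in LKO, against 29.1, 22.6 and 33.5 CPM in female Fl/Fl and 12.4 CPM in male Fl/Fl. The genotypes overlap among females, and the male library is the lowest of the 8. The log2 fold change was -0.24 ± 0.15 (SE, adjusted p = 0.456). Notch3 (chromosome 17, 32120820 to 32166880), the receptor of smooth muscle and pericytes, was at 2.25 to 3.45 CPM in LKO, 2.73 to 4.64 CPM in female Fl/Fl and 3.24 CPM in male Fl/Fl (log2 -0.27 ± 0.23, adjusted p = 0.613). Fl/Fl 9 alone was above 4 CPM.

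**Figure D2:**
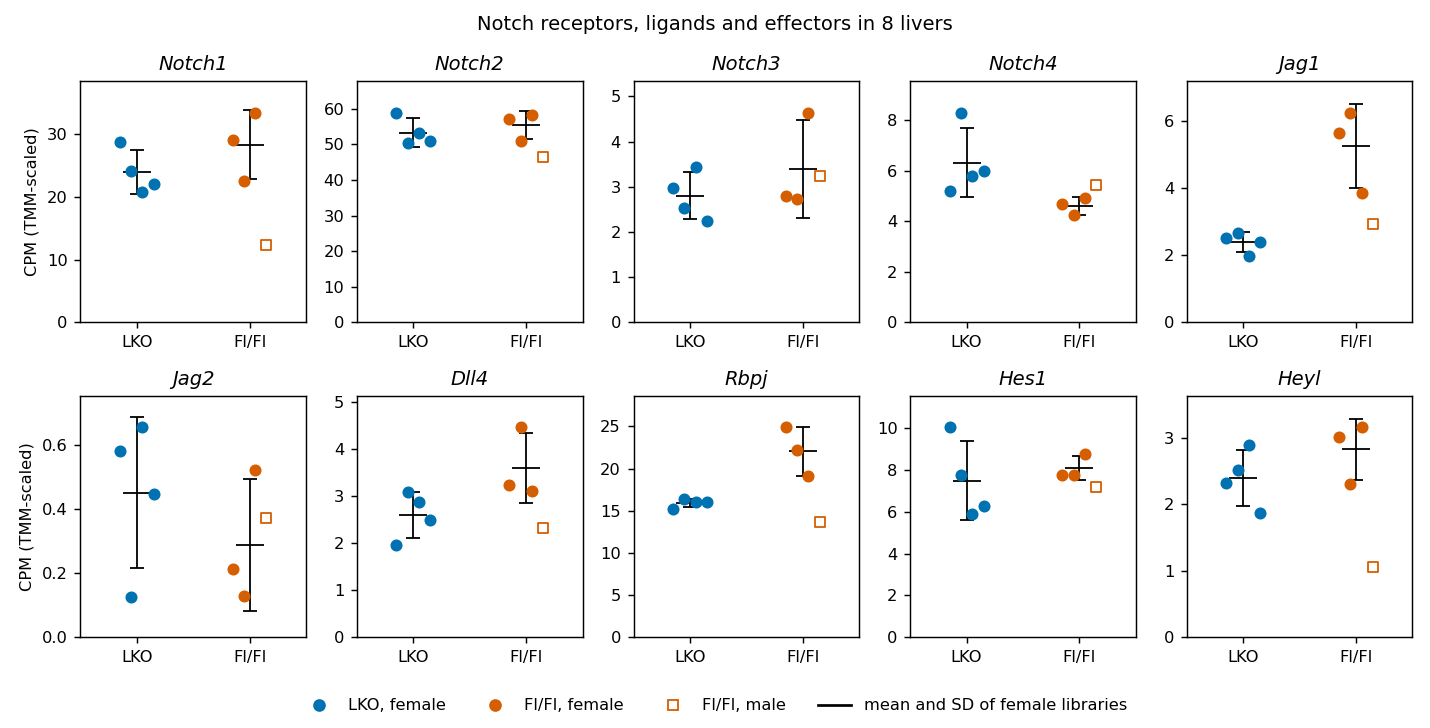
TMM-scaled CPM of each Notch gene, 1 point per library, with LKO left of Fl/Fl, the male Fl/Fl library as an open square, and the mean and SD of the female libraries. Jag1 has all 4 LKO points (1.96 to 2.68 CPM) below all 4 Fl/Fl points, while Notch2, Notch1, Notch3, Jag2, Hes1 and Heyl overlap.

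In the nucleus, Rbpj (chromosome 5, 53466152 to 53657362), which carries the Notch signal on DNA and acts as a repressor without it, was at 15.2, 16.4, 16.1 and 16.1 CPM in LKO. The Fl/Fl values were 24.9, 22.2 and 19.1 CPM in females and 13.6 CPM in the male. The LKO values are tight, with a coefficient of variation of 3.23% against 13.1% in female Fl/Fl. They lie below each female Fl/Fl value and above the male one. The log2 fold change of Rbpj was -0.47 ± 0.10 (SE, 95% interval -0.70 to -0.24, edgeR adjusted p = 0.0547). It passed without Fl/Fl 9 (adjusted p = 0.0121), with DESeq2 (0.00552) and with no filter on low counts (0.0272), and stood at 0.637 with no sex term. Without both Fl/Fl 5 and Fl/Fl 7, the Rbpj fold change was -0.27 log2 (adjusted p = 0.532). A pseudogene of it, Rbpj-ps3, had at most 8 reads in a library.

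The target genes Hes1 and Heyl did not pass the test. Hes1 (chromosome 16, 30064384 to 30067796), a direct target and repressor, was at 10.04, 7.73, 5.88 and 6.26 CPM in LKO, against 7.76, 7.76 and 8.75 CPM in female Fl/Fl and 7.19 CPM in male Fl/Fl. LKO holds both the highest and the lowest value, so its spread (coefficient of variation 25.2%) is wider than that of female Fl/Fl (7.12%). The log2 fold change of Hes1 was -0.11 ± 0.18 (SE, 95% interval -0.51 to 0.29, adjusted p = 0.817). Heyl (chromosome 4, 123233556 to 123249875), a Notch target in vessel wall cells, was at 2.32, 2.51, 2.89 and 1.87 CPM in LKO, against 3.02, 2.31 and 3.16 CPM in female Fl/Fl and 1.06 CPM in male Fl/Fl. The genotypes overlap, and the male library is again the lowest. Its log2 fold change was -0.24 ± 0.21 (SE, adjusted p = 0.624).

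**Figure D3:**
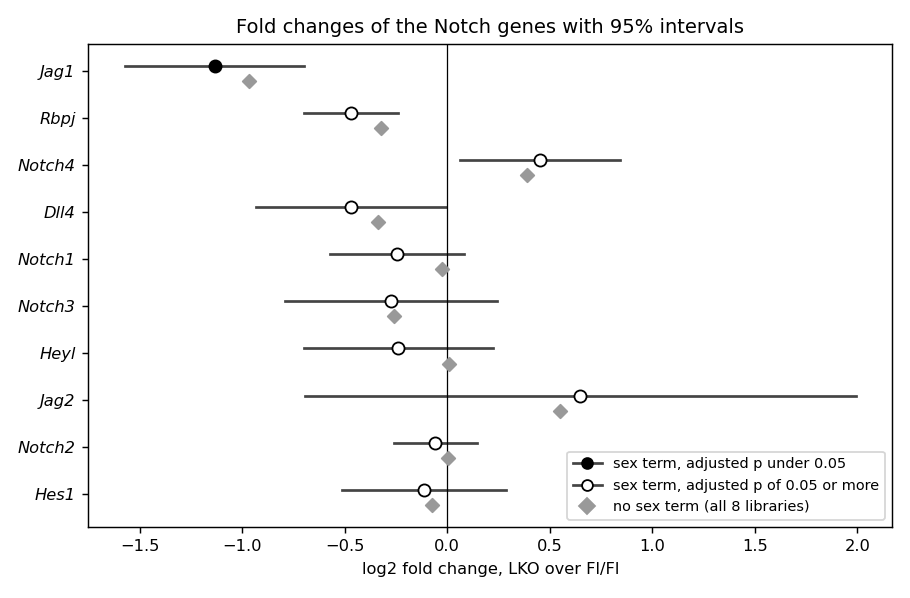
Log2 fold change of LKO over female Fl/Fl for each gene, with its 95% interval, from the fit with a sex term (circles) and the fold change with no sex term over all 8 libraries (grey diamonds). Jag1 (-1.13) is the 1 filled circle, past an adjusted p of 0.05, and the 10 diamonds stand at or nearer to 0 than their circles.

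For 4 of the 10 genes the LKO and female Fl/Fl values did not overlap (Jag1, Rbpj and Dll4 lower in LKO, Notch4 higher). That was so for 15.1% of all tested genes, 6.22% below and 8.85% above. For 8 of the 10 genes the male Fl/Fl value was closer to the average of LKO than to that of the other Fl/Fl livers. It was the lowest of all 8 libraries for 4 of them, Notch1, Notch2, Rbpj and Heyl. The shares of all tested genes with these male patterns were not computed, so they are not read as particular to the Notch genes. The endothelial markers of the male library (19 of 19 genes, led by Eng and Stab2) summed to 411 CPM, against 535 to 608 CPM in LKO and 508 to 622 CPM in female Fl/Fl. Its stellate, mural and portal fibroblast markers (16 of 16, led by Reln and Col3a1) summed to 170.4 CPM, against 224 to 273 CPM in LKO and 250.1 to 293 CPM in female Fl/Fl. The part of these cells in the low male values was not tested.

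**Figure D4:**
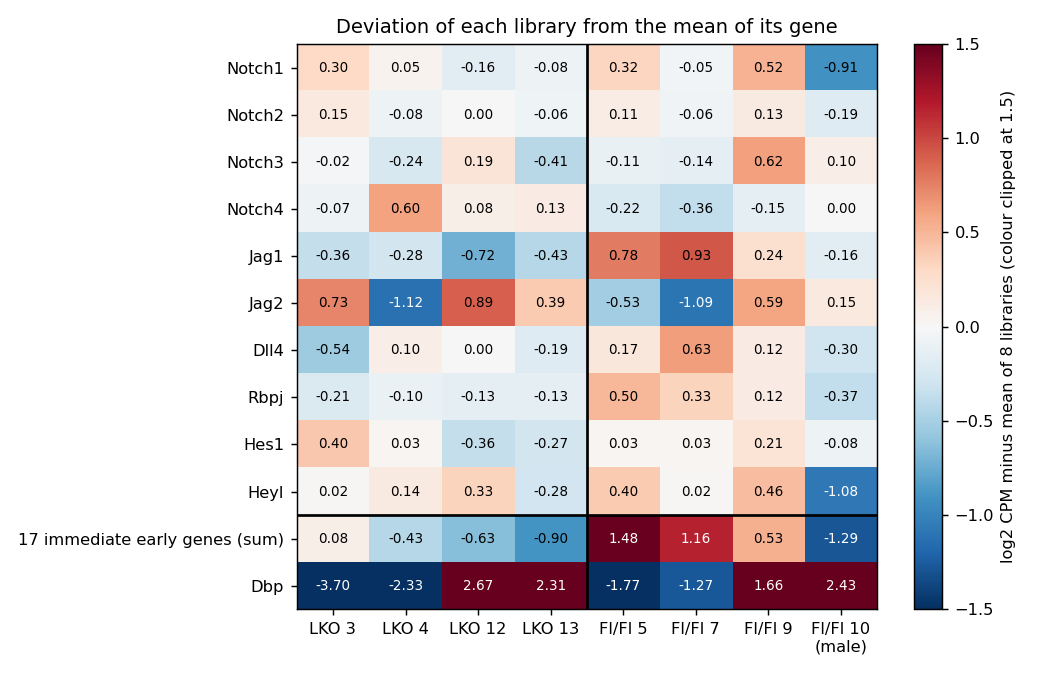
Log2 CPM of each Notch gene minus its mean over the 8 libraries, LKO libraries at left and Fl/Fl libraries at right, with the sum of 17 immediate early genes and the clock output gene Dbp below the line (colours stop at 1.5). Jag1 and Rbpj are highest in Fl/Fl 5 and Fl/Fl 7 (Jag1 at 0.78 and 0.93), where the immediate early genes also peak (1.48 and 1.16).

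Jag1 and Rbpj shared a coarse order among the Fl/Fl libraries with other genes. Both were highest in Fl/Fl 5 and 7, lower in Fl/Fl 9 and lowest in the male library. Jag1 peaked in Fl/Fl 7 and Rbpj in Fl/Fl 5. The summed level of 17 immediate early genes, which cells switch on within minutes of a stimulus, was 794 to 1569 CPM in LKO, 2146 to 4126 CPM in female Fl/Fl and 607 CPM in male Fl/Fl, and Fl/Fl 5 and 7 held the most. Of these 17 genes, Junb and Jun fell in LKO, 0 rose and 16 fold changes were negative (median log2 -1.26). Before adjustment 10 of them were lower at p under 0.05, and DESeq2 called 9 lower. Over all 16420 tested genes, 1126 were lower before adjustment, and DESeq2 called 315 lower. The most abundant of the 17 were Zfp36 and Btg2. Junb was at 48.7 ± 9.7 CPM in LKO and 179 ± 19.2 CPM in female Fl/Fl (adjusted p = 0.00127), and Jun at 83.3 ± 24.2 CPM in LKO and 439 ± 171 CPM in female Fl/Fl (adjusted p = 0.0369). Within LKO the order differed: LKO 3 had the highest immediate early sum (1569 CPM) and the lowest Rbpj (15.2 CPM). LKO 4 was the highest LKO library for both Jag1 and Rbpj. The part of the immediate early state of a liver in the Jag1 and Rbpj values was not tested.

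Clock phase also differed between the livers, within each genotype. Dbp, a clock output gene, was at 0.606 to 3.5004 CPM in LKO 3, LKO 4, Fl/Fl 5 and Fl/Fl 7, and at 26.85 to 54.4 CPM in LKO 12, LKO 13, Fl/Fl 9 and Fl/Fl 10. This split is even between the genotypes only with the male Fl/Fl 10 counted. Among the female libraries of the tested contrast it is uneven. Within the libraries low in Dbp, Jag1 was at 2.53 and 2.68 CPM in LKO, against 5.66 and 6.26 CPM in Fl/Fl. Within those high in Dbp it was at 1.96 and 2.41 CPM in LKO, against 3.86 CPM in the female and 2.92 CPM in the male Fl/Fl library. Jag1 was lower in LKO on both sides, but the high side had a single female Fl/Fl library. With a term for clock phase, added after seeing the data, the Jag1 fold change was -1.05 ± 0.17 log2 (SE, edgeR adjusted p = 0.0160). That fit tests genotype, and the part of clock phase in the Jag1 value was not tested. Rbpj was at 15.2 and 16.4 CPM in LKO against 24.9 and 22.2 CPM in Fl/Fl where Dbp was low. Where it was high, Rbpj was at 16.1 CPM in both LKO libraries, against 19.1 CPM in the female and 13.6 CPM in the male Fl/Fl library, so LKO lay between them.

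Of the rest of the pathway, 59 genes were tested in 7 lists by role, and 0 passed edgeR's test in either direction. Before adjustment, p was under 0.05 for 1 higher and 3 lower, and with DESeq2 1 was higher (Furin) and 1 lower (Myc). Over all 16420 tested genes, 1514 were higher and 1126 lower before adjustment, and 570 higher and 315 lower with DESeq2. The median log2 fold change of the 59 genes was -0.034, with 34 of them negative. Dll1, the 1 further ligand with enough reads, was at 6.42 ± 1.89 CPM in LKO and 6.04 ± 0.75 CPM in female Fl/Fl (adjusted p = 0.896). Dlk1, Dlk2 and Dner had too few reads to test. The 6 genes of ligand endocytosis had a median of 0.14, with Epn1 at 0.17 ± 0.08 and Epn2 at -0.21 ± 0.13 (adjusted p = 0.321 and 0.465).

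The 8 tested genes that glycosylate the receptors had a median of -0.0069. Lfng, the Fringe enzyme that alters which ligands a receptor responds to, was at 5.36 ± 1.33 CPM in LKO and 3.85 ± 0.65 CPM in female Fl/Fl (adjusted p = 0.312), and Xxylt1 at log2 -0.29 ± 0.16 (adjusted p = 0.384). Among the 10 genes of receptor cleavage (median -0.065), Furin, the protease that processes the receptors on their way to the surface, was at 392 ± 19.9 CPM in LKO and 285 ± 54.1 CPM in female Fl/Fl. Its log2 fold change was 0.46 ± 0.12 (adjusted p = 0.0990), and male Fl/Fl had 436 CPM. The 10 cleavage genes summed to 820 to 907 CPM in LKO, 700 to 735 CPM in female Fl/Fl and 861 CPM in male Fl/Fl, so the female groups did not overlap in a sum led by Furin. Adam10, which makes the ligand-induced cut, was at 32.8 ± 0.9 CPM in LKO and 37.6 ± 3.3 CPM in female Fl/Fl (adjusted p = 0.301).

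The 16 genes of the nuclear complex and its corepressors had a median of -0.028, with Cir1 at log2 -0.34 ± 0.16 and the acetyltransferase gene Kat2b at -0.16 ± 0.09 (adjusted p = 0.343 and 0.424). The 11 genes of receptor turnover had a median of -0.083, with the ubiquitin ligase Nedd4 at -0.20 ± 0.08 and Numbl at 0.59 ± 0.27 (adjusted p = 0.257 and 0.314). The 7 other target genes had a median of -0.45. Nrarp, Hey1 and Hey2, direct Notch targets, were at 0.0394 to 1.06 CPM over the 8 libraries. Their fold changes on the log2 scale were -0.45 ± 0.43 for Nrarp, -0.51 ± 0.46 for Hey1 and -0.77 ± 0.60 for Hey2 (adjusted p = 0.659, 0.637 and 0.574). Sox9 and Ccnd1, of the same list, had higher mean levels of 3.67 and 63.2 CPM. Their log2 fold changes were nearer to none, at -0.15 ± 0.29 and 0.07 ± 0.27 (edgeR adjusted p = 0.860 and 0.930). Myc, which is also an immediate early gene, stood at 4.50 ± 1.92 CPM in LKO and 21.2 ± 13.7 CPM in female Fl/Fl (adjusted p = 0.113). Hes6 was at 44.9 ± 4.0 CPM in LKO and 38.1 ± 7.8 CPM in female Fl/Fl (adjusted p = 0.415).

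**Figure D5:**
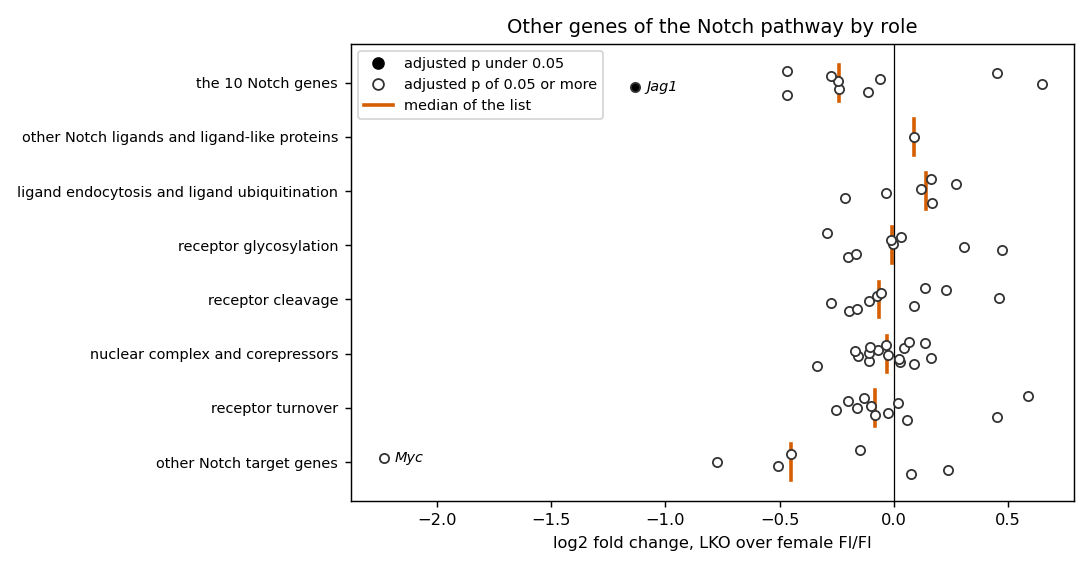
Log2 fold change of LKO over female Fl/Fl for the 10 Notch genes and for 59 other tested genes of the pathway by role (1 point per gene, orange bars mark list medians). Jag1 is the 1 filled point, past an adjusted p of 0.05, and Myc (-2.23) is the farthest open point.

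Marker genes of the liver's cell types gave 0 calls with edgeR. Of all 16420 tested genes, 1514 were higher and 1126 lower before adjustment, and 570 higher and 315 lower with DESeq2. The marker counts below are read against these totals. The 16 cholangiocyte markers, led by Spp1 and Slc4a2, summed to 113 to 128 CPM in LKO and 132 to 156 CPM in female Fl/Fl. Male Fl/Fl had 125 CPM, and the female groups did not overlap (2 genes lower by an unadjusted p below 0.05, and Onecut1 lower with DESeq2). Onecut1 alone averaged 8.68 CPM in LKO and 24.2 CPM in female Fl/Fl, with 40.3 CPM in Fl/Fl 9. Slc4a2 averaged 32.9 CPM in LKO and 28.8 CPM in female Fl/Fl, and 12 of the 16 fold changes were negative. The sum without Onecut1 was not computed, so the gap is not read as a fall of duct markers in general. On the log2 scale the duct markers Krt19, Krt7 and Epcam differed by -0.07 ± 0.23, 0.02 ± 0.27 and -0.05 ± 0.20 between LKO and female Fl/Fl. None of the 16 had 0 reads in all libraries. The part of duct cell number in the Jag1 value was not tested. Of the 19 endothelial markers 2 were higher and 1 lower by that unadjusted limit, with 0 by DESeq2, and of the 16 stellate, mural and portal fibroblast markers 0 were past either limit.

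Macrophage markers (14, led by Clec4f and Cd5l) summed to 512 to 643 CPM in LKO, 458 to 669 CPM in female Fl/Fl and 483 CPM in male Fl/Fl, with 1 higher and 1 lower before adjustment and C1qa higher by DESeq2. Lymphocyte markers (12, led by Cd4 and Gzma) summed to 4.94 to 9.62 CPM in LKO, 7.12 to 9.17 CPM in female Fl/Fl and 4.48 CPM in male Fl/Fl, with 1 lower before adjustment and 0 by DESeq2. The 9 hepatocyte markers, led by Alb and Apob, had 3 higher and 1 lower before adjustment, and Hnf4a higher by DESeq2. The 13 clock genes, led by Nr1d2 and Per1, had 1 higher before adjustment and Ciart higher by DESeq2. All the summed levels above are from the same scaled CPM.

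Genes most like Jag1 across the 8 libraries were ranked by the root mean square difference of their centred log2 CPM, among 12336 genes with a mean of at least 1 CPM. The nearest was Fzd7, a Wnt receptor, at a difference of 0.158 log2, where Jag1 itself varied by 0.556 log2. Fzd7 was at 9.88 CPM on average in LKO and 18.2 CPM in female Fl/Fl, with 9.98 CPM in male Fl/Fl (adjusted p = 0.0945). After it came Gm38393, Rcor3, Map3k21 and the heat shock factor gene Hsf2, at 0.169 to 0.215 log2. Of these 5 genes, Map3k21 and Hsf2 passed the test (adjusted p = 0.0483 and 0.0379), both lower in LKO. That direction follows from their choice, since they were picked for a profile like that of Jag1 over the same libraries. Nearest to Rbpj were Mapkbp1, the cohesin subunit gene Smc3, Ints10, A730017L22Rik and 9930021J03Rik, at 0.0561 to 0.0896 log2. Nearest to Hes1 were Cyp4f17, Ddhd1, Xrcc3, Als2cl and Ero1l, at 0.0798 to 0.112 log2. Likeness over 8 libraries describes these livers only.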

How the data were processed

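Per the labels' protocols, RNA was column-extracted and libraries were made with an NEBNext Ultra kit. The submitters' processing notes name fastp, STAR, HTSeq, featureCounts, DESeq, DESeq2, edgeR and mm10, without roles or versions. Annotation and strand setting are not given in the sources used here, so reads of overlapping antisense genes cannot be told apart (Notch1, Notch3 and Dll4 share exon bases with such genes, which had at most 27 reads in a library). The authors deposited whole-number counts per gene, the same counts divided by 1 size factor per library as a normalised signal, FPKM computed with a listed gene length, and their own log2 fold change with p-value and adjusted p-value.

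The counts were tested in R 4.3.3 with edgeR 4.0.16 (filterByExpr, TMM, estimateDisp, glmQLFit and glmQLFTest, robust), with genotype and sex over all 8 libraries, two-sided, and Benjamini-Hochberg adjusted over 16420 genes at 0.05. The SE was taken from each log2 fold change and its F value. The 95% intervals use the t distribution of the fit. Depth was 71491723 to 76622375 reads. limma 3.58.1 and DESeq2 1.42.0 served as alternatives. Coordinates are as deposited and equal those of GENCODE M21 for 9 of the 10 genes, the exception being Notch3. Likeness used log2(CPM + 0.05). The procedure was tested on simulated data, which held no sex or clock differences between libraries.

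The labels give distinct samples but not litters or days. A p-value of the fit with a sex term reflects spread among the female libraries, which may be technical. The single male library is taken up by that term and adds nothing to this spread. The members, lists, alternatives and tests were chosen with earlier results of these data known, and support nothing independently. All 10 members are named, with the 2 smallest p-values of each pathway list, the 2 most abundant genes of each marker list, called genes, and the 5 genes most like Jag1, Rbpj and Hes1. Dbp, the duct markers, Nrarp, Hey1, Hey2, Sox9, Ccnd1, and genes named for a DESeq2 call were chosen after their values were seen.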

Additional observations from a re-analysis of the deposited data

Results flagged for a closer look

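No library stood apart for any of the 10 Notch genes in 20 groups of 4 libraries. Over 112 groups for the 56 genes given by the naming rule, a library far from the other 3 of its group was found 5 times, where chance gives about 1 in 20. Adam10 was at 31.48 CPM in LKO 3, against 33.1 to 33.3 CPM in the other LKO libraries. Junb was at 63.16 CPM in LKO 4, against 43.0 to 44.7 CPM. Per1 was at 119.7 CPM in LKO 3, against 90.2 to 94.5 CPM. In the male Fl/Fl 10, Hes6 was at 122.2 CPM, against 31.1 to 46.6 CPM in the female Fl/Fl libraries, and Alb at 55809 CPM, against 102109 to 109283 CPM.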

How the results depend on the processing

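No member was called higher in LKO in any of the 20 alternatives, and no call reversed. No paired analysis was possible because the replicate numbers differ between the genotypes. Members called lower, with all genes called higher and lower beside them, were 1 with 167 and 65 as reported; 0 with 1 and 0 and a member median of -0.049 with no sex term; 2 with 320 and 142 with no filter; 2 with 570 and 315 with DESeq2. With limma on log2(FPKM + 1) they were 0 with 105 and 35 (median -0.097), on log2(FPKM + 0.1) 0 with 110 and 34, without both Fl/Fl 5 and Fl/Fl 7 0 with 8 and 18, and with a clock phase term, added after seeing the data, 1 with 254 and 99. Leaving out 1 library gave 0 to 2 members, 2 to 476 genes higher, 2 to 251 lower and member medians of -0.33 to -0.085. The cause of these shifts was not tested, except that a pseudocount of 1 FPKM compresses genes under 1 FPKM. At an unadjusted p under 0.05 the fit with no sex term had 654 genes higher and 663 lower, against 1514 and 1126 as reported. Jag1 kept a negative fold change in all 20 alternatives (-1.32 to -0.44) and passed in 11, as Rbpj did in 3. Leaving out Fl/Fl 10 and keeping the female libraries alone are the same fit. Both are counted among the 20, and Jag1 passed in each. With RPKM from the counts the order of levels changed for 0 members. That RPKM uses the same counts and listed gene lengths as the FPKM, so it checks library scaling only. Jag2 had 9 to 49 reads, the fewest of the members.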
